A study of Mus musculus with 9 samples.

Results

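Molecular chaperones of the cytosol and of mitochondria were read in bone marrow cells of mice labelled as knockout or wild type for the ubiquitin ligase adaptor Spop. The set was a list of 38 gene symbols, taken by name with no threshold on their values. It was chosen with earlier results of these data known, so its shares beside those of all genes describe the list and are no test. All 38 were found among the 37187 genes of the LSK table and the 45076 genes of the neutrophil table. They were grouped by role into 8 heat-inducible genes, 13 constitutive cytosolic genes, 5 mitochondrial genes, the 8 subunits of the cytosolic chaperonin CCT, 2 prefoldin subunits and 2 heat shock factors. The samples were 2 LSK libraries from Spop(D/D) knockout (KO) mice against 2 from Spop(+/+) wild-type (WT) mice, and 3 libraries of Ly6G+ neutrophils from Spop(D/D) mice against 2 from Spop(+/+) mice. All animals were 4 to 12 weeks old. LSK cells are the marrow fraction that holds blood stem cells and multipotent progenitors, and Ly6G marks neutrophils. Spop selects the substrates of a cullin-3 ubiquitin ligase. How and in which cells Spop was deleted is not given in the sources used here.

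Chaperones bind unfolded protein chains and help them fold or stay soluble. HSP70 proteins work in cycles of ATP hydrolysis that are started by J-domain partners (the Dnaj genes) and reset by nucleotide exchange factors. HSP90 acts later, on signalling proteins and receptors, and the ring-shaped chaperonins HSP60 in mitochondria and CCT in the cytosol enclose a chain while it folds. Heat shock factor 1, encoded by Hsf1, switches on the inducible members under stress by binding heat shock elements, repeats of the letters GAA and TTC in alternating direction. In bone marrow, blood stem cells are known for a low rate of protein synthesis and for their sensitivity to disturbed protein folding.

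Promoter sequences were searched because heat-inducible genes are known for heat shock elements close to their start sites. RefSeq windows on GRCm38.p6, running from 250 bases before to 50 bases after a start site, were held for 31 of the 38 genes (42 windows in all). A 2-unit element, GAANNTTC (the same letters on both strands), was in 10 of the 31 genes and in 12 of the 42 windows, against 7.86% of all 32851 windows of the same length. Of the 7 heat-inducible genes with a window 5 held it (Hspa1a, Hspa1b, Hsph1, Hspb1 and Bag3), as did Dnaja1, Dnajb6, Hspd1, Hspe1 and Cct2 in the other classes. A 3-unit element, GAANNTTCNNGAA or, on the other strand, TTCNNGAANNTTC, contains the shorter motif and was in Hsph1, Dnajb6, Hspd1 and Hspe1 only, in 6 of 42 windows against 0.603% of all. Hspd1 and Hspe1 start head to head on chromosome 1, and the Hspd1 window with the element overlaps that of Hspe1 and holds the same site. The other Hspd1 window (chr1:55088194-55088493) has 0 heat shock elements. The windows of Hsph1 overlap each other, as do those of Dnajb6. For both elements, the counts of windows therefore take some sites more than once. The CCAAT box (CCAAT or ATTGG) was in 15 of 31 genes, with 37.4% of all windows holding it, and in 4 of the 7 CCT genes with a window (Tcp1, Cct3, Cct6a and Cct7). The GC box (GGGCGG or CCGCCC) was in 28 genes against 35.7% of all windows, the E box CACGTG in 3 against 7.15%, and the TATA box (TATAAA or TTTATA) in 1, Stip1, against 13.6%. A gene could have more than 1 window, so counts of genes and shares of windows are not on 1 scale. A match describes these letters and does not show that a factor binds. The 5 windows below show, in capitals, the 2-unit element of Hspa1b (chr17:34959189-34959488, minus strand), whose fold change in LSK cells was the largest of the set, the 3-unit elements of Hsph1 (chr5:149636266-149636565, minus strand), Hspe1 (chr1:55087898-55088197, plus strand; 2 matches that overlap) and Dnajb6 (chr5:29735648-29735947, plus strand), and the CCAAT box of the chaperonin gene Tcp1 (chr17:12916079-12916378, plus strand). All are written 5′ to 3′ on the gene's own strand.
Hspa1b: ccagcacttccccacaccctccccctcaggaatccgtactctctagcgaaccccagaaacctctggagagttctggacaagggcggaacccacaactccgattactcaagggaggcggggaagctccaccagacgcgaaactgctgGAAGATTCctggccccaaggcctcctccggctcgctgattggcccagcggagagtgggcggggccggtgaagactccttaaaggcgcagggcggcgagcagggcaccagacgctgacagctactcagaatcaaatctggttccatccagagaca
Hsph1: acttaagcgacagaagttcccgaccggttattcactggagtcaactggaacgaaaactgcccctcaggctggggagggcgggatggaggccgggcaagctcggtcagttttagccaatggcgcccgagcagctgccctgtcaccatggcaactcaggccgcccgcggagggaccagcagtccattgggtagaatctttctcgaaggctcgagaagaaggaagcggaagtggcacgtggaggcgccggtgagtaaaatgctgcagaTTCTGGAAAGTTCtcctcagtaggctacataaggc
Hspe1: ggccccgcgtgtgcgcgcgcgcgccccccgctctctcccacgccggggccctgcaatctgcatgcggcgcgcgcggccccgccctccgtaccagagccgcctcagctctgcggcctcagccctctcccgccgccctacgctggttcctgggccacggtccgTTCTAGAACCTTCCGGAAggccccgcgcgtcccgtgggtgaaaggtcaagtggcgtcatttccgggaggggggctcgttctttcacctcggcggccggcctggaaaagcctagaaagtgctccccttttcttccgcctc
Dnajb6: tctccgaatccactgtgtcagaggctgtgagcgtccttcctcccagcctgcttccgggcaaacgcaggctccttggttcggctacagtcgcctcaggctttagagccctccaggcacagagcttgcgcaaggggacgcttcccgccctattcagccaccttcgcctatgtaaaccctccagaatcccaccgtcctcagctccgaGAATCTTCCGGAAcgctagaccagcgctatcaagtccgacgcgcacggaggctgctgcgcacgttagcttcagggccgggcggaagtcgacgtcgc
Tcp1: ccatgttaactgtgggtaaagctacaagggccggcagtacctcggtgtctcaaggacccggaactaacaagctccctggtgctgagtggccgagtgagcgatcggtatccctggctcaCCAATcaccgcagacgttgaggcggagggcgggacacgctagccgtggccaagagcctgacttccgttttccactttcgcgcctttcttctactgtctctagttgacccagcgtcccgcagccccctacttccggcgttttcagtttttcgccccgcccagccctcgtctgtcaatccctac
The capitals begin 104 bases before the start site in Hspa1b, 16 bases after it in Hsph1, 89 and 84 bases before it in Hspe1, 46 bases before it in Dnajb6 and 132 bases before it in Tcp1.

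Levels are CPM, read counts scaled to a common library size, corrected within each population by trimmed means of M values (TMM), the method of the package edgeR that sets libraries level on the bulk of genes. Libraries held 18827892 to 20264417 counted reads in LSK cells and 21012702 to 27434086 in neutrophils. Spop itself was at 312 and 306 CPM in KO LSK libraries, against 380 and 390 CPM in WT (log2 fold change -0.32, edgeR adjusted p = 0.0118). In neutrophils it was at 158, 178 and 210.0 CPM in KO, against 135 and 194 CPM in WT (adjusted p = 0.901), so the genotype of these libraries is taken from the labels alone. The second KO LSK library is named as LSK in its title and source, but 1 further label field calls it neutrophil. It had 644 CPM of Kit, a marker of LSK cells, and 0 reads of Ly6g, as had the 3 other LSK libraries. Of the neutrophil libraries, the second WT one stood apart, with 1814 CPM summed over 7 B cell markers and 24989.5 CPM over 5 MHC class II genes. The other WT library had 70.0 and 542 CPM of these, and the KO libraries at most 10.2 and 85.6 CPM. The second WT library was also highest in T and NK cell markers (766 CPM, against 179 CPM in the first and at most 132 CPM in KO). Its monocyte and macrophage markers came to 1035 CPM, against 397 CPM in the first and at most 236 CPM in KO. The third KO neutrophil library had 294327 CPM of S100a8, which encodes an abundant cytosolic protein of neutrophils. The first and second KO libraries had 58569 and 54639 CPM of it. The third also held 18216 CPM of erythroid markers, where the first and second held 36.2 and 2.25 CPM. The WT neutrophil libraries held 1716 and 3645 CPM of these. In bulk RNA, fewer cells of a type and less RNA per cell cannot be told apart. The labels do not state whether each replicate was its own animal, and the p-values therefore reflect variation among the sequenced libraries that could be technical.

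Transcripts of most chaperones were more abundant in KO LSK cells. Of the 37 members that passed the filter on low counts, 26 rose, 1 fell and 10 did not pass the test (edgeR quasi-likelihood test, adjusted p threshold 0.05). Over all 13008 genes tested, 21.0% rose and 21.2% fell. The median log2 fold change was 0.59 over the members and -0.03 over all genes. The member that did not enter the test was Hspb1, a small heat shock protein, with 1 read in each KO library, against 3 and 4 reads in WT. Both KO libraries lay above both WT libraries for 31 of the 37 members, as they did for 34.6% of all genes. Most members are abundant, and abundant genes rose more often here. Where the average log2 CPM reached 5 or more, 25 of 32 members rose, against 31.7% of all such genes. Summed over the 38 genes, chaperone transcripts came to 16759 and 16731 CPM in KO libraries, against 11054 and 10538 CPM in WT, a ratio of means of 1.55. The sums of the KO libraries differ by less than those of the WT libraries, and the groups do not overlap. With upper-quartile scaling in place of TMM, 23 members rose and 1 fell, and 39.0% of all called genes were higher, against 49.8% with TMM. In a fit of all 9 libraries, which takes its spread from the neutrophils as well, 0 members passed (smallest adjusted p = 0.449, 11 with an unadjusted p under 0.05), as did 0 of all genes.

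**Figure D1:**
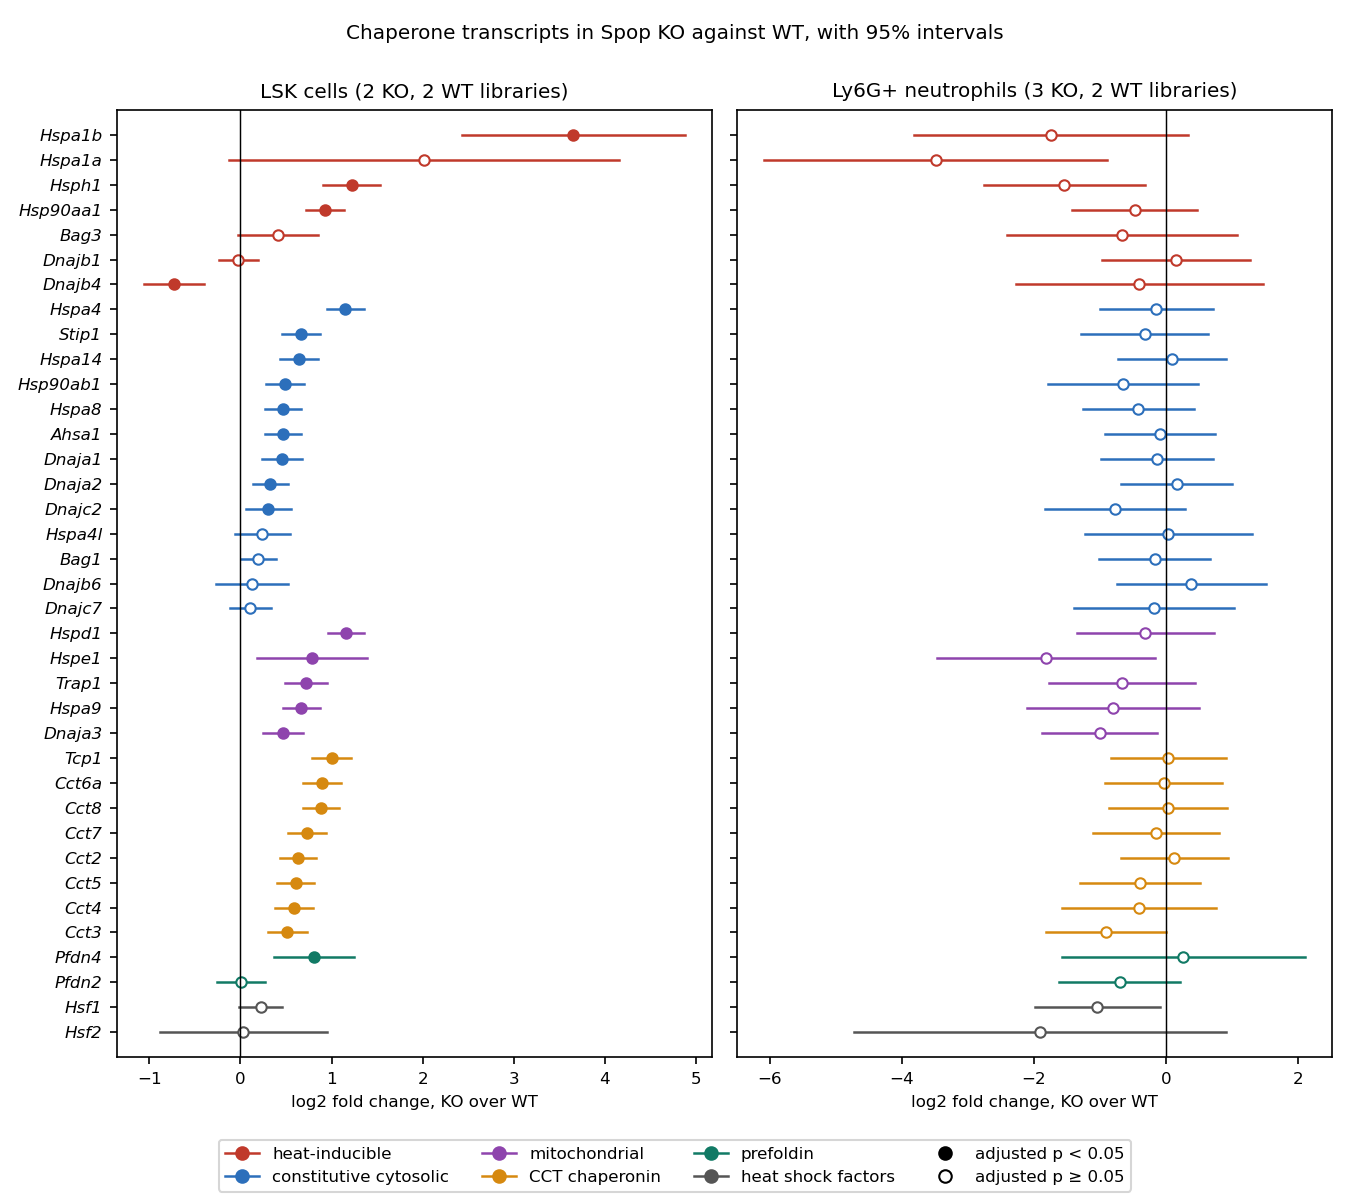
Log2 fold change of KO over WT (x axis) for the 37 chaperone genes tested (rows, coloured by class) in LSK cells (left) and neutrophils (right), with 95% confidence intervals as bars and filled points for adjusted p under 0.05. In LSK cells 26 points are filled to the right of 0 and 1, Dnajb4, to the left, whereas no neutrophil point is filled and the x axis there is wider.

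The heat-inducible genes did not move as a block in LSK cells. Of 7 tested, 3 rose, 1 fell and 3 did not pass, with a median log2 fold change of 0.93. Hspa1b, an inducible HSP70 (chromosome 17, 34956436 to 34959238), was at 10.5 and 6.01 CPM in KO libraries, against 0.254 and 1.03 CPM in WT. Both KO libraries lay far above both WT libraries, a 12.6-fold rise (log2 SE 0.550, adjusted p = 4.67e-04) that rests on 315 reads in KO and 27 reads in WT. Its log2 fold change of 3.65 was 3.0 without the first WT library and 4.99 without the second, and it passed both times. Its near-identical neighbour Hspa1a (34969190 to 34972156) had 23 and 11 reads in KO libraries, against 0 and 9 reads in WT, and did not pass (log2 fold change 2.01, adjusted p = 0.119). Without the second WT library, which leaves a WT group of 0 reads, Hspa1a passed (adjusted p = 0.0263). Of the 50-base stretches of the Hspa1a transcript 58.8% also occur in that of Hspa1b (62.3% the other way), so the split of reads between the pair is uncertain. Neither gene was abundant. In CPM per kb of transcript, Hspa1b reached 3.76 and 2.14 in KO libraries, where its constitutive relative Hspa8 stood at 220.4 and 223.

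Hsph1 encodes a large HSP70 relative that acts as a nucleotide exchange factor (chromosome 5, 149614287 to 149636376), and its promoter window, shown above, has a 3-unit heat shock element. It was at 235 and 230.1 CPM in KO libraries, against 83.3 and 116 CPM in WT, a rise of 1.22 on the log2 scale (SE 0.141, adjusted p = 8.88e-05). Hsp90aa1, the inducible cytosolic HSP90 (chromosome 12, 110690605 to 110702728), was at 263 and 246 CPM in KO, against 136 and 131 CPM in WT (log2 0.93, SE 0.0947, adjusted p = 1.05e-05). For both genes the groups are clear of each other, although the WT libraries of Hsph1 lie apart. The pair of J-domain partners behaved otherwise. Dnajb1, the classic stress-induced partner of HSP70, was at 191 and 177 CPM in KO and at 196 and 178 CPM in WT, with groups that overlap (log2 fold change -0.02, 95% interval -0.23 to 0.19, adjusted p = 0.875). Dnajb4 was the only member that fell, to 27.1 and 22.7 CPM in KO, against 43.3 and 39.4 CPM in WT (log2 fold change -0.73, SE 0.151, adjusted p = 0.00189). Bag3, which couples HSP70 to autophagy, was at 14.8 and 13.6 CPM in KO and 10.9 and 10.5 CPM in WT (adjusted p = 0.121).

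The transcript of Hsf1, the factor that drives the heat shock response, did not pass in LSK cells. It was at 83.4 and 89.4 CPM in KO, against 72.5 and 75.6 CPM in WT (log2 fold change 0.22, 95% interval -0.02 to 0.46, adjusted p = 0.123). Hsf2, a related factor, was scarce at 3.08 and 2.18 CPM in KO and 2.18 and 2.96 CPM in WT, and its interval of -0.88 to 0.95 covers sizeable changes either way. Hsf1 is known to be controlled mainly at the protein level, which transcripts do not show. Immediate-early genes, which handling of cells can induce along with heat shock genes, were read beside them. The 12 immediate-early genes came to 334 and 384 CPM in KO libraries, against 452 and 465 CPM in WT. Of the 10 tested, 1 rose and 6 fell, among them Dusp1, a phosphatase gene induced by stress, at 12.7 and 16.8 CPM in KO against 38.4 and 41.7 CPM in WT. The part of handling in the chaperone levels was not tested.

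**Figure D2:**
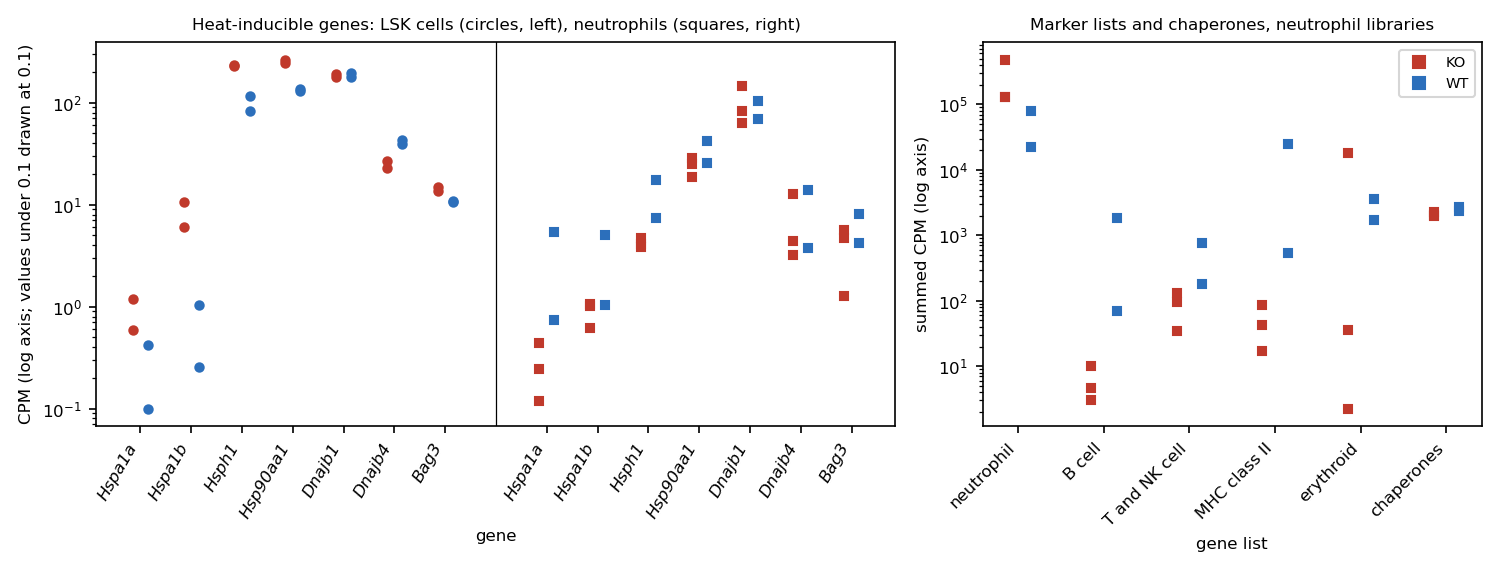
Left, CPM (log axis) of the 7 heat-inducible genes tested in each LSK library (circles) and neutrophil library (squares), with KO in red to the left of WT in blue. Right, summed CPM (log axis) of marker lists and of all chaperones in the neutrophil libraries. Hspa1b, Hsph1 and Hsp90aa1 stand higher in KO than in WT LSK cells, and the B cell and MHC class II sums of the second WT neutrophil library (1814 and 24989.5 CPM) lie far above those of the other libraries.

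Among the 13 constitutive cytosolic genes 9 rose and 0 fell, with a median log2 fold change of 0.46, and all 13 had a fitted value above 0. Hspa4, an exchange factor for HSP70 (chromosome 11, 53259814 to 53300457), moved most. It was at 444 and 422 CPM in KO, against 186 and 203 CPM in WT, a 2.22-fold rise (log2 SE 0.0940, adjusted p = 2.06e-06). Its close relative Hspa4l was at 85.5 and 70.4 CPM in KO and 59.1 and 73.2 CPM in WT and did not pass (adjusted p = 0.192), with groups that overlap. Hspa8, the constitutive HSP70 of every cell (chromosome 9, 40800984 to 40810087), rose 1.39-fold, to 528 and 535 CPM in KO, against 396 and 371 CPM in WT (adjusted p = 0.00121). Small nucleolar RNA genes take up 6.09% of the Hspa8 exon bases.

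Hspa14 and Dnajc2 together form the ribosome-associated complex, which meets chains as they leave the ribosome. Hspa14 was at 174 and 181 CPM in KO, against 114 and 113 CPM in WT (log2 0.64, SE 0.0958, adjusted p = 1.86e-04). That value comes from a row which the authors name Hspa14 and the GENCODE M21 annotation lists as Gm45902, a locus that overlaps Hspa14. Dnajc2 was at 149 and 122 CPM in KO, against 113 and 106 CPM in WT, and was the weakest of the calls (log2 0.31, adjusted p = 0.0477). It was lost without the first KO library (adjusted p = 0.195), without the first WT library (0.128), without the second (0.246) and with upper-quartile scaling (0.148). The J-domain genes Dnaja1 and Dnaja2, general partners of HSP70, rose by 0.46 and 0.33 on the log2 scale (adjusted p = 0.00350 and 0.00994). Dnaja2 was steady within groups, at 382 and 381 CPM in KO against 304 and 305 CPM in WT, yet its call did not survive leaving out either WT library (adjusted p = 0.0944 and 0.0910) or upper-quartile scaling (0.0565). Dnajb6, which blocks aggregation and has a 3-unit heat shock element in the window shown, was at 20.7 and 17.9 CPM in KO and 18.0 and 17.4 CPM in WT (adjusted p = 0.602). Dnajc7 and Bag1, cochaperones of HSP70, had log2 fold changes of 0.11 and 0.19 and did not pass (adjusted p = 0.425 and 0.0985).

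All 3 constitutive members of the HSP90 cycle rose. Hsp90ab1, the constitutive HSP90 (chromosome 17, 45567775 to 45573271), was the most abundant member, at 2409.9 and 2570.4 CPM in KO, against 1803 and 1742 CPM in WT (log2 0.49, SE 0.0979, adjusted p = 0.00154). Stip1, which hands clients over from HSP70 to HSP90, was at 637 and 571 CPM in KO, against 386 and 375 CPM in WT (log2 0.67, adjusted p = 1.34e-04). Ahsa1, an activator of the HSP90 ATPase, was at 381 and 361 CPM in KO, against 273 and 265 CPM in WT (log2 0.46, adjusted p = 0.00126). Compared per kb of transcript, the inducible Hsp90aa1 made up 7.72% and 6.85% of both cytosolic HSP90 transcripts in KO libraries, against 5.48% and 5.46% in WT. These ratios within a library do not depend on scaling, and the groups do not overlap.

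All 5 mitochondrial members rose, with a median log2 fold change of 0.72. Hspd1 encodes HSP60, the chaperonin of the matrix (chromosome 1, 55077835 to 55088243). It was at 377 and 366 CPM in KO, against 164 and 168 CPM in WT, a 2.24-fold rise (log2 SE 0.0905, adjusted p = 1.55e-06). Hspe1, its lid HSP10, starts from the same promoter region on the opposite strand (55088132 to 55091307). It was at 115 and 67.1 CPM in KO, against 51.7 and 54.4 CPM in WT, so the KO libraries differed widely. Its call (log2 0.78, SE 0.247, adjusted p = 0.0459) did not survive leaving out the first WT library (adjusted p = 0.192) or the second (0.183), or scaling by upper quartiles (0.0575), and its log2 fold change was 0.38 without the first KO library and 1.12 without the second. Per kb, the Hspe1 to Hspd1 ratio was 0.957 and 0.574 in KO, against 0.985 and 1.01 in WT.

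Hspa9, the mitochondrial HSP70 that pulls in imported proteins, was at 831 and 777 CPM in KO, against 502 and 509 CPM in WT (log2 0.67, SE 0.0922, adjusted p = 1.05e-04). Dnaja3, its J-domain partner, was at 197 and 232 CPM in KO, against 156 and 154 CPM in WT (log2 0.47, adjusted p = 0.00298). Trap1, the mitochondrial HSP90, was at 344 and 402 CPM in KO, against 239 and 214 CPM in WT (log2 0.72, adjusted p = 1.56e-04). For these 3 genes no KO library reached down to a WT value.

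The chaperonin CCT folds actin and tubulin in a double ring to which each of 8 different subunits contributes. All 8 subunit genes rose in KO LSK cells, with log2 fold changes between 0.51 and 1.003 and a median of 0.68. Tcp1, subunit alpha (chromosome 17, 12915701 to 12925067), rose most, to 842 and 885 CPM in KO, against 460.2 and 402 CPM in WT (SE 0.0997, adjusted p = 8.82e-06). Cct6a, subunit zeta, was at 1422 and 1323 CPM in KO, against 768 and 708 CPM in WT (log2 0.90, adjusted p = 1.78e-05), and Cct8, subunit theta, rose by 0.88. Cct3, subunit gamma, rose least, to 1052 and 1139 CPM in KO, against 803 and 732 CPM in WT (log2 0.51, SE 0.0978, adjusted p = 0.00110). Cct7, Cct2, Cct5 and Cct4 lay between, at 0.73, 0.63, 0.61 and 0.59. All 8 calls were kept in every alternative other than the fit of all 9 libraries.

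Summed, the CCT subunits made up 8160.0 and 8190.2 CPM in KO libraries, against 5159 and 4726 CPM in WT. Per kb of transcript Cct5 was the most abundant subunit in all 9 libraries, at 723 and 720.5 CPM per kb in KO LSK libraries, against 492 and 456 CPM per kb in WT. Cct2 was the least abundant in LSK cells, at 217 and 218 CPM per kb in KO, against 146 and 135 CPM per kb in WT. The most abundant subunit thus exceeded the least by 3.33 and 3.31 times in KO libraries, against 3.36 and 3.38 times in WT. The spread of the 8 levels, as a coefficient of variation, was 33.8% and 33.4% in KO and 38.5% and 39.1% in WT. Opposite-strand genes share 14.2% of the exon bases of Tcp1 and 12.5% of those of Cct6a, and the kit used does not keep the strand.

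**Figure D3:**
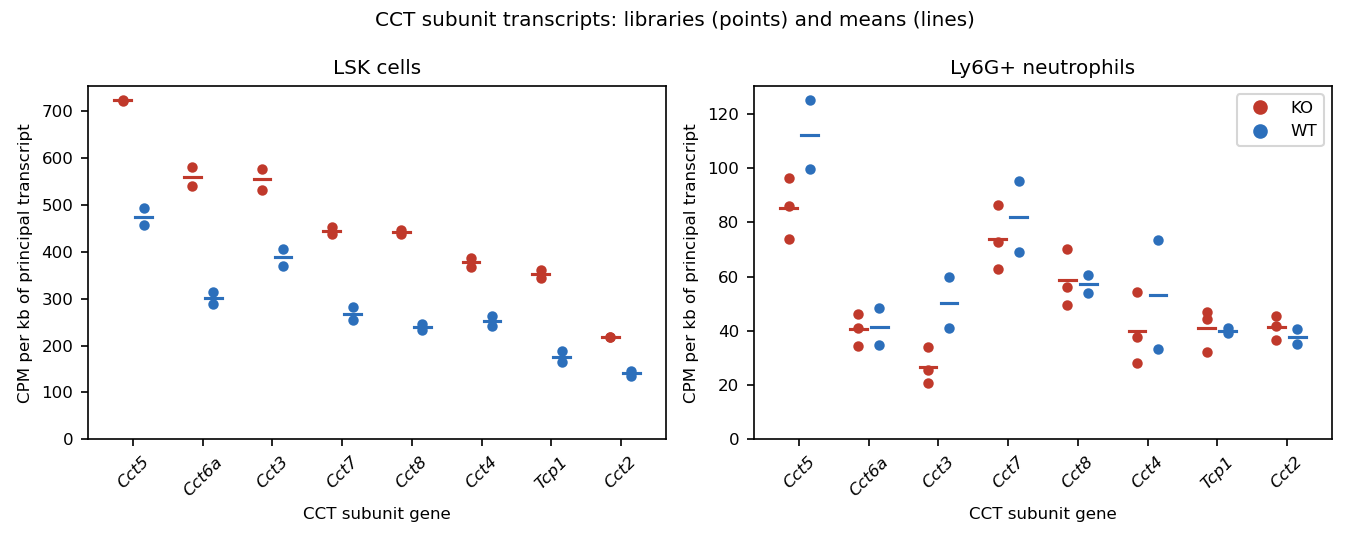
CPM per kb of principal transcript (y axis, linear from 0) of the 8 CCT subunit genes in LSK cells (left) and neutrophils (right), with points for libraries, lines for means, KO in red and WT in blue to its right. In LSK cells every KO point lies above every WT point of its gene, with Cct5 highest and Cct2 lowest, and in neutrophils the groups overlap for 6 of the 8 genes.

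Prefoldin passes actin and tubulin chains to CCT. Pfdn4 rose to 49.7 and 34.1 CPM in KO, against 20.8 and 27.0 CPM in WT (log2 0.81, SE 0.199, adjusted p = 0.00747), a call lost without the first WT library (adjusted p = 0.0823). Pfdn2 was at 65.7 and 72.0 CPM in KO and 73.0 and 64.4 CPM in WT (log2 fold change 0.00, adjusted p = 0.982). Opposite-strand genes share 28.7% of the exon bases of Pfdn4 and 27.6% of those of Pfdn2.

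Other cell markers moved in the same LSK libraries. The 7 LSK markers summed to 2402 and 2636 CPM in KO, against 4187 and 3921 CPM in WT, and 1 of them rose while 5 fell. The 7 B cell markers came to 61.8 and 66.8 CPM in KO, against 158 and 147 CPM in WT, and the 7 monocyte and macrophage markers to 155 and 221 CPM in KO, against 78.4 and 106 CPM in WT. Of the B cell markers 6 fell, and of the monocyte and macrophage markers 2 rose and 4 fell. In KO libraries a single gene made up most of each sum, Cd79b (59.9 and 63.0 CPM) and Csf1r (110 and 160 CPM). The 8 erythroid markers, of which 6 fell, came to 47.7 and 85.3 CPM in KO, against 111 and 157 CPM in WT. The 5 MHC class II genes, of which 3 fell, came to 174 and 269 CPM in KO, against 362 and 352 CPM in WT. The 8 neutrophil markers came to 289 and 228 CPM in KO, against 216 and 225 CPM in WT, and 2 of them rose, Cxcr2 by 4.60-fold and Mmp8 by 7.85-fold. The 7 T and NK cell markers came to 492 and 459 CPM in KO, against 367 and 311 CPM in WT, and 1 of them, Nkg7, rose. Nkg7 alone made up most of this sum, at 488 and 453 CPM in KO, against 362 and 296 CPM in WT. The part of such shifts in the chaperone levels was not tested.

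Genes that work with the members were counted from a list of 62. Of 59 tested in LSK cells, 19 rose and 5 fell, with a median log2 fold change of 0.15. The share that rose lies above the 21.0% of all genes and close to the 31.7% of abundant genes, and the share that fell below the 21.2% of all genes. HSP90 partners (6 of 11 rose, 1 fell) and mitochondrial partners and proteases (7 of 13 rose, 0 fell) held most of the rises. HSP70 partners held 2 that rose and 1 that fell of 16, and prefoldin subunits with cofactors of CCT and tubulin 4 and 1 of 14. Small heat shock proteins and regulators of the factors held 0 that rose and 2 that fell of 5. The largest rises were those of Ppid, a cyclophilin bound to HSP90 (168 CPM in KO and 90.1 CPM in WT on average, log2 0.90, adjusted p = 2.43e-05), Chordc1 (log2 0.89) and Cacybp (log2 0.84), both of which bind HSP90 or its partners, and Grpel1, the exchange factor of mitochondrial HSP70 (log2 0.79). The largest falls were those of the small heat shock protein gene Hspb8 (0.239 CPM in KO and 2.20 CPM in WT on average), the HSP70 relative Hspa12b (log2 -1.29), Hspb11 (log2 -0.85) and the prefoldin subunit Pfdn5 (log2 -0.57). For comparison, all 11 chaperones of the endoplasmic reticulum rose, with a median of 1.12, and 13 of the 14 genes of the 20S proteasome, with a median of 0.44. Differences between these lists were not tested.

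In neutrophils, 0 of the 37 members passed the edgeR test, as did 0 of 12836 genes (0%). The lowest adjusted p of a member was 0.244. At an unadjusted p under 0.05 stood 1787 of all genes and 5 members, all 5 lower in KO, where 9.13% of all genes were lower at that level. Of the 37 members, 28 had a fitted log2 fold change below 0, against 49.1% of all genes, and the median was -0.39. In 13 members every KO library lay below both WT libraries, against 17.5% of all genes, and in 0 members every KO library lay above them, against 17.0%. Summed over all members, chaperone transcripts came to 2312, 2053 and 1942 CPM in KO, against 2369 and 2749 CPM in WT, so the KO sums lie below both WT sums by a small margin. DESeq2, a different count model, called 272 genes higher and 605 lower (4.72%), with 1 member, Hspa1a, among the lower (adjusted p = 0.0429).

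The 5 members were Hspa1a, Hsph1, Hspe1, Dnaja3 and Hsf1. Hspa1a had 12, 3 and 4 reads in KO libraries, against 21 and 178 reads in WT (log2 fold change -3.49, edgeR adjusted p = 0.244). Hsph1 was at 4.66, 3.87 and 4.16 CPM in KO, against 7.33 and 17.3 CPM in WT (-1.54, adjusted p = 0.264). Hspe1 was at 4.08, 2.92 and 6.18 CPM in KO, against 5.48 and 25.5 CPM in WT (-1.82, adjusted p = 0.320). In all 3 genes the second WT library, the one with B cell and MHC class II transcripts, was far above the first. Without it their log2 fold changes were -1.49, -0.82 and -0.35. Dnaja3 and Hsf1 differed from them in that the WT libraries agreed. Dnaja3 was at 16.9, 17.7 and 11.5 CPM in KO, against 29.6 and 32.1 CPM in WT (-1.004, adjusted p = 0.300), and Hsf1 was at 10.3, 14.1 and 8.07 CPM in KO, against 21.7 and 22.8 CPM in WT (-1.04, adjusted p = 0.320). Without the second WT library these values were -0.98 and -1.03.

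Leaving out the second WT neutrophil library gave 0 members with an unadjusted p under 0.05 and 27 of 37 with a value below 0. Leaving out that library and the third KO library together, an alternative chosen after the data were seen, gave 1 such member and 24 of 37 below 0, and 0 members passed either way. Neither the mitochondrial nor the CCT members moved past the test in neutrophils. Hspa9 spread over 47.1, 30.3 and 12.4 CPM in KO, against 46.5 and 57.7 CPM in WT, and Hspd1 over 24.8, 18.0 and 11.4 CPM in KO, against 19.0 and 25.8 CPM in WT, with the third KO library lowest in both. Trap1 was at 32.2, 16.2 and 13.0 CPM in KO, against 32.4 and 32.7 CPM in WT (adjusted p = 0.565). The CCT median was -0.09, with Cct3 lowest at 67.2, 50.6 and 41.4 CPM in KO, against 81.5 and 118 CPM in WT (log2 fold change -0.91, adjusted p = 0.361). Hsp90ab1 was at 301, 302 and 153 CPM in KO, against 345 and 443 CPM in WT (adjusted p = 0.589). The intervals are wide, for instance -0.86 to 0.93 for Cct8. Of members that rose in LSK cells, Hspa14, Hsp90ab1, Dnaja1, Dnaja2, Ahsa1, Cct2, Cct4, Cct7, Cct8 and Pfdn4 had LSK fold changes within their neutrophil intervals. The other LSK rises lie above the neutrophil upper limit. They include Hspa1b (log2 3.65, neutrophil upper limit 0.34), Hsph1 (1.22, -0.32), Hspd1 (1.16, 0.73) and Hspa4 (1.15, 0.71). Also above it were Hsp90aa1 (0.93, 0.47), Hspe1 (0.78, -0.17), Trap1 (0.72, 0.44), Cct3 (0.51, 0.004) and Dnaja3 (0.47, -0.13). Some exceed it narrowly, such as Tcp1 (1.003, 0.911) and Cct6a (0.895, 0.855). The interaction test below compares the populations. The lack of calls does not show a lack of change.

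Among the other heat-inducible members the neutrophil groups overlapped. Hspa1b had 1.02, 1.07 and 0.612 CPM in KO, against 1.03 and 5.02 CPM in WT, so that 4 of the 5 libraries lay close together and the second WT library stood above them. Dnajb1 was at 82.5, 62.6 and 144 CPM in KO and 104 and 69.6 CPM in WT, with the third KO library highest and the second lowest. Dnajb4 was high in the third KO library (12.7 CPM, with 3.24 and 4.42 CPM in the others) and in the second WT library (14.1 CPM, with 3.77 CPM in the first). Hspb1 was not tested, at 0 CPM in 4 libraries and 0.0302 CPM, a single read, in the second WT library. The class medians were -0.67 for the heat-inducible, -0.15 for the constitutive and -0.80 for the mitochondrial members, and all 5 mitochondrial values were below 0. Without the second WT library these medians were -0.15, -0.30 and -0.67, and that of CCT was 0.07. The constitutive median was 0.01 without the first WT library. Hspa8 was at 103, 93.7 and 84.0 CPM in KO, against 112 and 137 CPM in WT (log2 fold change -0.42, adjusted p = 0.634), without overlap of the groups. Summed over 8 neutrophil markers, the libraries held 128785, 131656 and 478417 CPM in KO, against 79775 and 22516 CPM in WT, so the libraries with the fewest neutrophil transcripts were WT. The part of this difference in the chaperone levels was not tested. Of 58 genes that work with the chaperones, 0 passed in neutrophils, with a median of -0.12.

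**Figure D4:**
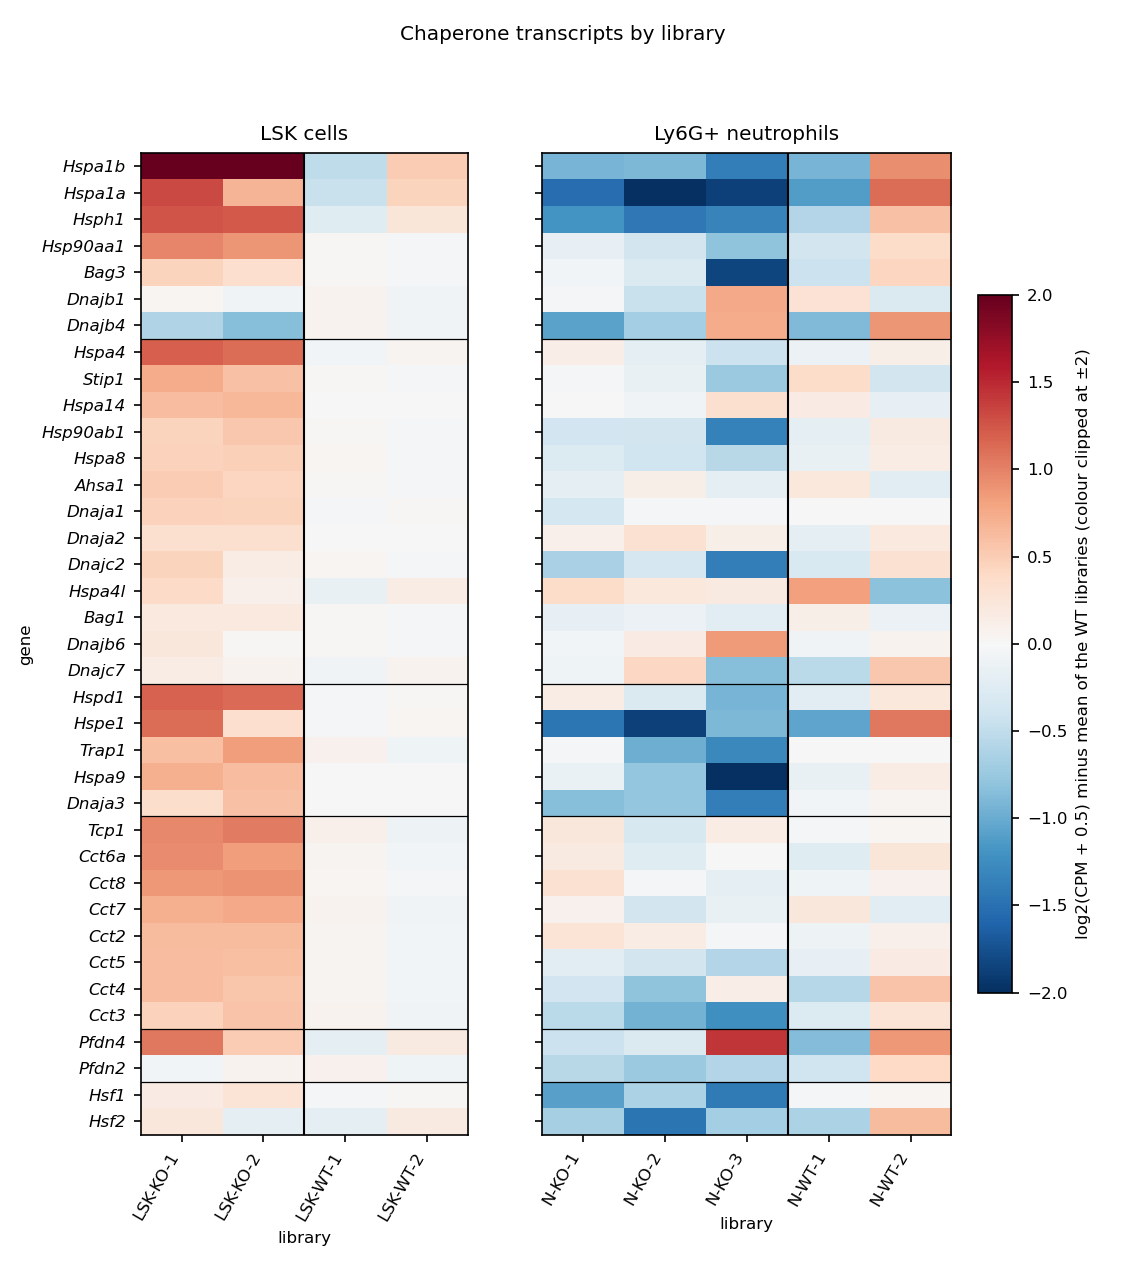
Deviation of log2(CPM + 0.5) from the mean of the WT libraries of the same population (colour, red higher and blue lower, clipped at 2) for each chaperone gene tested (rows, by class) in each library (columns, KO left of WT). Both KO LSK columns are red for nearly all rows below the heat-inducible block, while in neutrophils the second WT library is red and the third KO library blue for many rows.

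Whether genotype acted differently in the LSK and neutrophil populations was tested as an interaction over all 9 libraries. Of 13817 genes 4 passed (0.0289%), and of the 37 members 0 passed (lowest adjusted p = 0.160). The LSK effect exceeded the neutrophil effect in 34 of 37 members. The median of this difference over all genes was itself 0.21, and the share of all genes with a positive difference was not counted. The LSK effect was also the larger in all 15 members with an unadjusted p under 0.05, a level reached in that direction by 10.4% of all genes. The largest differences were 5.53 for Hspa1a (SE 1.98, adjusted p = 0.253) and 5.42 for Hspa1b (SE 1.32, adjusted p = 0.177) on the log2 scale. Hsph1 had the lowest p, with a difference of 2.80 (SE 0.526, 95% interval 1.59 to 4.01, adjusted p = 0.160). Without the first WT neutrophil library, which leaves the second as the only WT library of that population, 4 of 37 members passed, Hspa1b, Hsph1, Hsp90aa1 and Hspe1 (adjusted p = 0.0200, 0.00693, 0.0452 and 0.0185), as did 9.41% of all genes, a share close to that of the members. Without the second, 0 members passed.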

How the data were processed

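RNA had been isolated with the RNeasy Micro kit and made into libraries with SMART-Seq v4, per the labels' protocols. This kit amplifies polyadenylated RNA without recording the strand. The processing notes of the submitters name bcl2fastq, STAR, featureCounts and DESeq2, and mm10 and GRCm38; the sources used here do not give the counting settings. Deposited were the authors' raw read counts per gene for each population, and these entered all tests. The authors also deposited normalized values (a signal: counts divided by 1 factor per library), used only to match member names.

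Members were looked up by symbol, the LSK identifiers through GENCODE M21 and the authors' own names. The test within a population was that of edgeR 4.0.16 in R 4.3.3 (TMM factors, its expression filter by group, robust quasi-likelihood fit, Benjamini-Hochberg adjustment over all genes tested, threshold 0.05), and the interaction over 35219 genes joined by symbol. No 2 replicates of a group were close enough to be 1 library deposited again (lowest chi-square per gene 9.87). CPM per kb used the principal transcript. 3 reads, the limit that a count of 0 allows, equal 0.141 to 0.160 TMM-scaled CPM in LSK and 0.0907 to 0.184 in neutrophil libraries, counting error alone considered. Alternatives were DESeq2 1.42.0, other scaling factors, no filter, the replicate number as a block, single libraries left out, and 1 fit of all 9 libraries.

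The members and lists were chosen with earlier results of these data known. Named were all members, Spop, markers that check a label or stand beside a result, and, of the other chaperone-system genes, the 4 that rose most and the 4 that fell most among those that passed.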

Additional observations from a re-analysis of the deposited data

Results flagged for a closer look

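In 11 chaperone genes every KO library lay above both WT libraries in LSK cells and every KO library lay below both WT libraries in neutrophils. The LSK effect minus the neutrophil effect, on the log2 scale, was 5.53 for Hspa1a, 2.80 for Hsph1, 0.933 for Hspa8, 1.17 for Hsp90ab1, 0.643 for Dnaja1 and 1.11 for Dnajc2. It was 1.51 for Dnaja3, 1.42 for Trap1, 1.46 for Cct3, 1.04 for Cct5 and 1.31 for Hsf1. None of the 11 passed the interaction test (edgeR, lowest adjusted p of any member 0.160), and Hspa1a and Hsf1 did not pass in LSK cells either. Dnaja1 is set apart in neutrophils by small margins, at 14.0, 17.7 and 17.6 CPM in KO, against 18.1 and 17.9 CPM in WT. With 2 libraries in a group, complete separation is common: it held for 34.6% of genes (KO above WT, LSK cells) and 17.5% of genes (KO below WT, neutrophils). The share of all genes with both patterns at once was not counted. The 11 genes were picked for this pattern, so the positive sign of their differences follows from it and adds nothing to it.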

How the results depend on the processing

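Of the 27 calls in LSK cells, all were kept with DESeq2, with its size factors in edgeR, without the filter and with a replicate block (26 higher, 1 lower), and 23 were kept in every alternative except the fit of all 9 libraries, where 0 were higher and 0 lower. Leaving out single LSK libraries gave 22 to 27 members higher and 1 lower. In neutrophils DESeq2 called 1 member lower, and every other alternative 0 in either direction. Members past the interaction test ranged from 0 to 4 when single libraries were left out, the 4 coming without the first WT neutrophil library, when 9.41% of all genes passed. With upper-quartile scaling the LSK medians were 0.362 (constitutive), 0.629 (mitochondrial) and 0.587 (CCT), and the neutrophil constitutive median was -0.298; Pfdn2 and Hsf2 turned to -0.0882 and -0.0621. With single libraries left out, the LSK medians ranged from 0.659 to 0.751 (mitochondrial) and from 0.616 to 0.753 (CCT), and the neutrophil medians from -1.23 to -0.146 (heat-inducible), -0.299 to 0.00687 (constitutive), -1.18 to -0.435 (mitochondrial) and -0.233 to 0.0656 (CCT); the heat-inducible one was -0.00143 without the second WT and the third KO libraries. In the same way uncalled values near 0 turned sign: Dnajb1 ranged from -0.0852 to 0.0489, Pfdn2 from -0.0818 to 0.109, and Hsf2 from -0.197 to 0.271. The cause was not tested. In neutrophils upper-quartile scaling put the median of all genes at -0.12 (0.02 with TMM) and 33 of 37 members below 0. Over all neutrophil genes, 76 were higher and 258 lower without the filter, 86 and 248 with the block, 120 and 442 in the fit of all 9 libraries, and 207 and 394 without the first WT library. Whether replicate numbers pair the samples is not settled. Deviations of libraries with the same number correlated at 0.00393 in LSK cells and at 0.239 and -0.0241 in neutrophils. Only the 0.239 exceeds the limit of 0.1 used for pairing. Where a group has 2 libraries, their deviations mirror each other, so this check says little. The block gave 26 members higher and 1 lower in LSK cells, 0 in neutrophils and 0 for the interaction. With 2 or 3 libraries a group, small changes could be missed. In neutrophils Hspa1a, Hsph1, Hspe1, Dnaja3 and Hsf1 had 95% intervals clear of 0 and did not pass the adjustment over all genes. For Hspa1a, Hspa1b, Hsf2 and Hspb1 few reads limit precision.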
